A study of Mus musculus with 6 samples.

Results

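The nuclear genes of the respiratory chain and of ATP synthase were followed in mouse bone marrow-derived macrophages that had been polarized with or without regorafenib, a multikinase inhibitor. Members were the protein-coding nuclear genes whose symbols begin with Nduf, Uqcr, Cox4, Cox5, Cox6, Cox7, Cox8 or Atp5. The rule found 90 gene rows among the 54446 rows of the count table, and 84 of them had at least 10 counts in a library. These 84 were 36 subunits of complex I, 8 assembly factors of complex I, 8 subunits of complex III, 15 of complex IV, 16 of complex V and Atp5s, which carries an Atp5 symbol without being a subunit of the enzyme. Cox7a2l, a relative of Cox7a2, is counted with complex IV by its symbol. The 6 that did not reach 10 counts were the tissue isoforms Cox4i2, Cox7b2, Cox8b, Cox8c and Ndufa4l2 and a second gene identifier of Atp5o.

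Macrophages were grown from the marrow of male BALB/c mice, 6 to 8 weeks old, for 7 days in 20% L929-conditioned medium. M1 cells received interferon-γ at 20 ng/mL with lipopolysaccharide at 50 ng/mL for 24 h, M2 cells received interleukin-4 at 20 ng/mL for 24 h, and M0 cells received neither. Regorafenib at 1 µM was given for 1 h before polarization, and controls received the solvent DMSO. How long M0 cells were kept after the drug or solvent is not given in the sources used here, so culture time and drug exposure may differ between M0 and the polarized cells. Each of the 6 conditions was 1 library, and whether mice were pooled was not given in the sources used here. A ratio between a pair of libraries therefore had no replicate check, and its 95% interval covers counting error only.

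Complex I takes electrons from NADH, complex III passes them from ubiquinol to cytochrome c, and complex IV hands them to oxygen. All 3 pump protons across the inner mitochondrial membrane, and complex V, the ATP synthase, lets the protons back through a ring of c subunits to make ATP. Macrophages polarized with interleukin-4 are known for oxidative metabolism, and those polarized with interferon-γ and lipopolysaccharide for glycolysis with a rewired respiratory chain.

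Library totals ranged from 25359309 to 34898342 counts. Macrophage markers (Adgre1, Csf1r, Itgam, Cd68 and 4 others) summed to 21869 to 48726 CPM, counts scaled to library size with TMM factors, in the 6 libraries, and no lymphoid or erythroid marker on the lists reached 10 counts. The M1 marker list summed to 26075 and 21250 CPM in the M1 libraries against 20.1 to 118 in the others. The M2 list summed to 1353 and 659 CPM in the M2 libraries against 5.23 to 33.9 in the others. Fibroblast markers were low but present, from 9.75 CPM in M2 control to 29.9 in M1 regorafenib. Neutrophil precursor markers summed to 84.8 to 158 CPM, and dendritic cell markers to 31.9 and 38.8 in M1 against 0.243 to 2.43 elsewhere. The part of these other cell types in the results was not tested. Scaling matters for the M1 libraries, whose TMM factors were 0.820 and 0.844 against 1.05 to 1.12 in the others. With library totals in place of TMM factors, the median of all genes in M1 against M0 moved by -0.44 (log2) without drug and by -0.41 under regorafenib, and by less than 0.1 in the other 5 comparisons. Levels in M1 are therefore described beside the median of all genes tested as well.

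The genes printed here show how members with like roles can differ in their upstream sequence. Atp5g1, Atp5g2 and Atp5g3 encode subunit c, the ring protein of ATP synthase, and were all below M0 in M1 control. Cox7a2 encodes the ubiquitous form of a small complex IV subunit. Its relative Cox7a2l is described as joining complexes III and IV in supercomplexes, a role not tested in these cells. These 2 had ratios to regorafenib of opposite sign in M0 and in M2, and both were higher with it in M1. The 250 bases before the RefSeq start of each gene (GRCm38.p6, all on the minus strand, printed 5′ to 3′ along the gene) lie at chr11:96075632-96075881 for Atp5g1, chr15:102671048-102671297 for Atp5g2, chr2:73911327-73911576 for Atp5g3, chr9:79759854-79760103 for Cox7a2 and chr17:83514334-83514583 for Cox7a2l. Capitals mark matches to the 4 motifs described next.
Atp5g1: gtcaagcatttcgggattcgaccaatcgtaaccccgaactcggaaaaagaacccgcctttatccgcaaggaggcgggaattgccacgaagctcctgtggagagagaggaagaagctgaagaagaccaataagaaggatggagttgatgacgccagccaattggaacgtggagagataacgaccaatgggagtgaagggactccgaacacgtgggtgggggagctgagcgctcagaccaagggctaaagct
Atp5g2: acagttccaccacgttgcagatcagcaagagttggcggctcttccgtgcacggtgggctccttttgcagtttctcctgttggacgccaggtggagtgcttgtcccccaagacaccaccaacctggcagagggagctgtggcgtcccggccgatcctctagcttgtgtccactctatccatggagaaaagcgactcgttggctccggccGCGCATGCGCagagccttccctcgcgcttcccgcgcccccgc
Atp5g3: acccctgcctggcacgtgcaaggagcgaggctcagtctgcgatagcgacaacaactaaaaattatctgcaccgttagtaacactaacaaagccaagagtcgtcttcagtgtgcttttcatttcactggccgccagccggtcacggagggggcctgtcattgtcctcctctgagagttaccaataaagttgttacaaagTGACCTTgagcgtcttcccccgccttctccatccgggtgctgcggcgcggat
Cox7a2: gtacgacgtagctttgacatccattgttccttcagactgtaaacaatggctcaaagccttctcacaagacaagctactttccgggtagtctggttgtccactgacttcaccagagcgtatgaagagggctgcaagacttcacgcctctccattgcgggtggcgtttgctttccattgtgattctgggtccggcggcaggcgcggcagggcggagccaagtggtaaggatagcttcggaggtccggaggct
Cox7a2l: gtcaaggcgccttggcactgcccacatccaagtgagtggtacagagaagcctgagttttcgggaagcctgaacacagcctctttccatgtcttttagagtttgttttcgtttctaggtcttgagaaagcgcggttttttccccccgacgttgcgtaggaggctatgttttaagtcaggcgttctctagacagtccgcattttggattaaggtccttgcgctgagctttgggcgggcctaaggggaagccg

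Short motifs were searched on both strands in RefSeq windows from 250 bases before to 50 after the start: GCGCANGCG for NRF1, CCGGAAGT for ETS factors, AAGATGGC for YY1 and AAGGTCA for estrogen-related receptors. NRF1, the ETS factor GABP, YY1 and ERRα are known regulators of respiratory genes. Windows were matched for 71 of the 84 members. The NRF1 letters were in 20 of them (28.2%), against 7.03% of 27025 genes with a window and 9.63% of the coding ones. They were in 7 of 14 complex V genes, 8 of 32 complex I genes and 1 of 12 complex IV genes. The YY1 letters were in 11 members (15.5%, against 3.19% of all windows and 3.57% of coding ones). ERR letters were in 7 (9.86%, against 5.38% and 4.73%) and ETS letters in 5 (7.04%, against 4.31% and 5.69%). The ETS share was close to that of coding windows. The NRF1 match of Atp5g2 was read on both strands, since it overlaps its own reverse complement. Atp5g3 held the ERR letters upstream and the NRF1 letters after the start. Atp5g1, Cox7a2 and Cox7a2l held none of the 4 in this window.

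In CPM per kilobase of merged exon, the level that compares genes, the most abundant members were Cox8a (median of the 6 libraries 234), Cox6b1 (220), Atp5a1 (203), Cox6a1 (199) and Atp5b (198). Atp5a1 and Atp5b encode the α and catalytic β subunits of the F1 head. At the low end stood Cox6a2 (0.245), Cox6b2 (0.376) and Ndufb2 (0.666). Cox6a2 is the muscle form and Cox6b2 the testis form of subunits whose common forms, Cox6a1 and Cox6b1, were among the most abundant.

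Summed over the 84 members, the level was 6260 CPM in M0 control, 5136 in M0 regorafenib, 6169 in M1 control, 6873 in M1 regorafenib, 7641 in M2 control and 6555 in M2 regorafenib. M2 control was the highest library for 48 of the 84 members and M1 regorafenib for 21. M0 regorafenib was the lowest for 52 and M1 control for 20. The sum was thus lower with regorafenib in M0 and in M2 and higher with it in M1. The place of the M1 libraries among the others holds for TMM scaling only. Library totals move every M1 against M0 ratio by -0.44 without drug and by -0.41 under regorafenib.

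**Figure D1:**
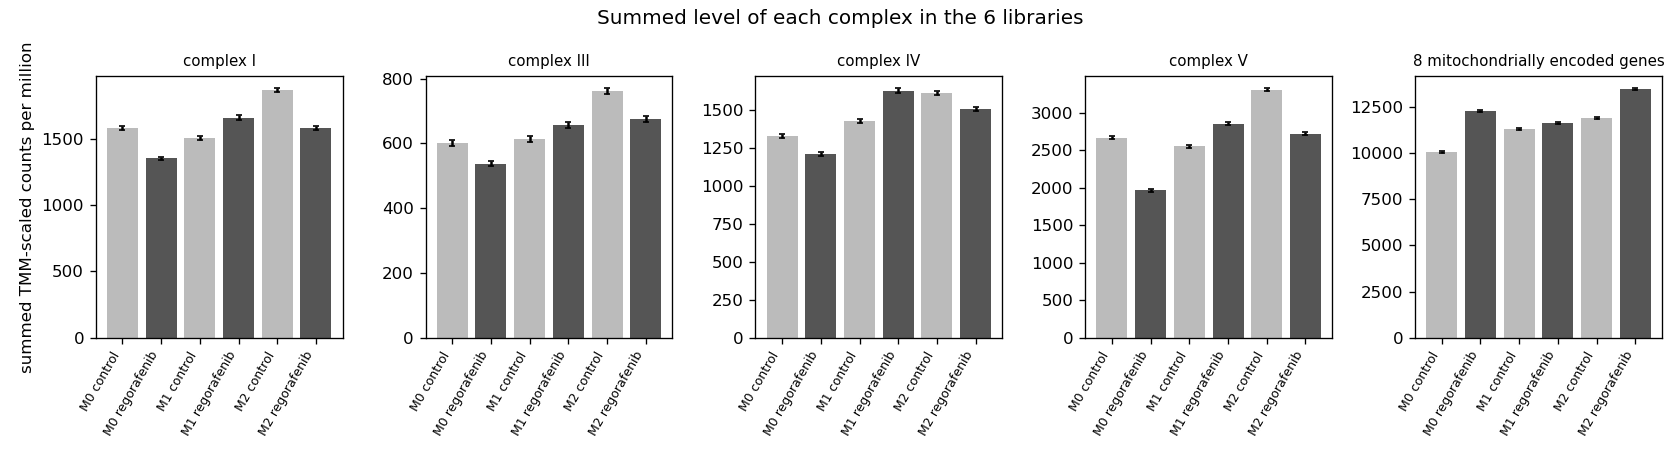
Summed TMM-scaled CPM (y axis, from 0, a scale per panel) of complexes I, III, IV and V and of 8 mitochondrially encoded genes in each of the 6 libraries, with 95% counting intervals as error bars (light bars control, dark bars regorafenib). Complex V ranges from 1963 CPM in M0 regorafenib to 3302 in M2 control, while the mitochondrially encoded sum is lowest in M0 control at 10059. Which library is lowest depends on the scaling, since library totals in place of TMM lower the M1 levels beside the others.

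In M1 against M0 without drug, the members shifted little as a group but spread widely. Their median log2 ratio was -0.11, with 33 positive and 51 negative, beside -0.05 over the 14917 genes tested, and 36 members lay above that all-gene median and 48 below. With library totals the median was -0.55 with 78 of 84 negative. Its distance from the all-gene median was -0.06, a value that scaling cannot change. A ratio was counted as past the threshold at an absolute log2 ratio of at least 0.5, a fold of 1.41. Past it were 5 members upward and 14 downward, 5.95% and 16.7%, against 28.3% and 31.5% of all genes. Cox6a2, at 8 counts against 0, was among the 5, and Cox6b2, at 1 against 13, among the 14. Medians were -0.12 for complex I, 0.11 for complex III, 0.12 for complex IV, -0.22 for complex V and -0.65 for the Ndufaf assembly factors, of which 5 of 8 were past the threshold downward. The signs for complexes III and IV hold for TMM scaling, and library totals lower every ratio in this comparison by 0.44.

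Among members with at least 100 counts in a library of the pair, complex I held both the highest and the lowest ratio in M1. Ndufs8, a core iron-sulfur subunit near the ubiquinone site, had 1275 counts in M0 control, 923 in M0 regorafenib, 441 in M1 control, 564 in M1 regorafenib, 1840 in M2 control and 1054 in M2 regorafenib. Both M1 libraries were the lowest, and in M1 against M0 without drug the log2 ratio was -1.28 (interval -1.44 to -1.12), the only ratio past 1 of a member with at least 100 counts in a library of that pair, with Cox7a1 at -1.29 on 99 and 34 counts. Ndufs4, an accessory subunit of the NADH-oxidizing module, ran the other way at 29.1, 20.8, 46.4, 54.2, 35.5 and 25.1 CPM in the same order. Its ratio was 0.67 (0.55 to 0.80) without drug and 1.38 (1.25 to 1.51) under regorafenib. Ndufv3, of the same module, had 1163, 1155, 1568, 1326, 1527 and 1070 counts and was again highest in both M1 libraries after scaling (60.7 and 55.0 CPM, and at most 41.8 in the others), with a ratio of 0.68 (0.57 to 0.79). Ndufb3 of the membrane arm was at 0.61 and Ndufa6 at 0.58. The membrane-arm subunit Ndufb7 was at -0.60 and Ndufa12, late in complex I assembly, at -0.66. The core subunits Ndufs1 and Ndufv1 were at -0.38 and -0.17. Among the assembly factors Ndufaf2 was lowest at -0.92, although 65.6% of its exon bases overlap an antisense gene and the strand setting of the counts is not given in the sources used here.

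The 3 genes for subunit c were all lower in M1 control than in M0 control. Atp5g2 went from 2143 to 988 counts (-0.87, interval -0.98 to -0.76), Atp5g1 from 1601 to 808 (-0.74, -0.86 to -0.61) and Atp5g3 from 4547 to 2866 (-0.42, -0.48 to -0.35). Of the F1 head, Atp5a1 was at -0.12, and Atp5b, at 0.21, was the highest member of complex V. Of the 100-base words in Atp5g2 transcripts, 34.7% also occur in transcripts of other genes, so some of its reads may not be assigned to it. Atp5g3 shares none and Atp5g1 5.94%. In complex III, Uqcr11 was at -0.75 and the Rieske iron-sulfur protein Uqcrfs1 at 0.33.

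In complex IV, the members past the threshold downward were Cox6b2, Cox7a1 and Ndufa4. Cox7a1, the heart and muscle counterpart of Cox7a2, had 99, 82, 34, 22, 121 and 59 counts in M0 control, M0 regorafenib, M1 control, M1 regorafenib, M2 control and M2 regorafenib, lowest in both M1 libraries. Cox6b2 had 13, 24, 1, 1, 15 and 18 counts, and with 1 count in M1 control its ratio of -3.45 has an interval of -8.86 to -0.72. Cox6a2 had 0, 1, 8, 2, 15 and 7 counts, too few for a fold against M0 control. Ndufa4, once assigned to complex I and now known as a complex IV subunit, stood at 89.7, 74.6, 60.6, 72.2, 109 and 106 CPM, with a ratio of -0.56 (-0.66 to -0.47) in M1. Its paralog AA467197, which is outside the rule and was chosen after its values were seen, had 13, 14, 505, 435, 8 and 14 counts, and its ratio in M1 was 5.53 (4.74 to 6.45). Among the common subunits Cox5a was at 0.39 and Cox4i1 at -0.16.

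**Figure D2:**
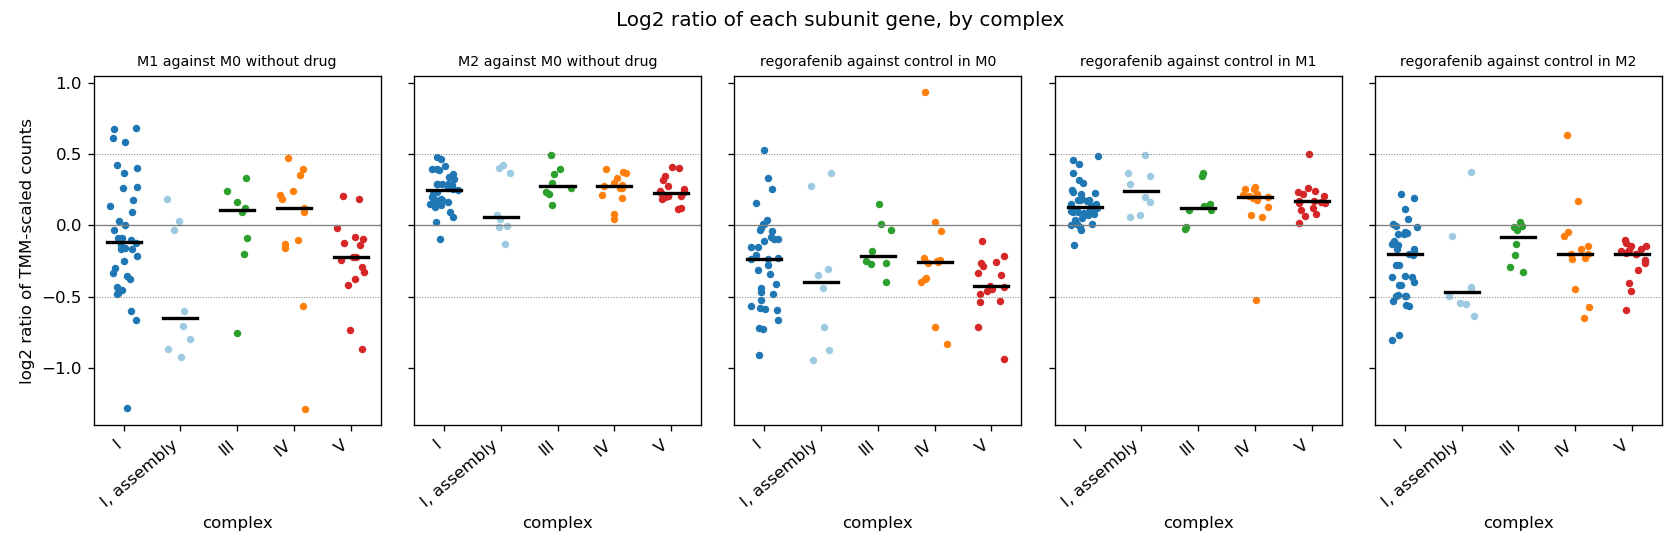
Log2 ratio of TMM-scaled counts (y axis) of each member, by complex (x axis), in 5 comparisons, with a black bar at the median of the members drawn and dotted lines at -0.5 and 0.5. Atp5s and the low-count isoforms Cox6a2 and Cox6b2 are not drawn. Members spread widely in M1 against M0 and lie almost wholly above 0 in M2 against M0 and under regorafenib in M1.

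In M2 against M0 without drug, nearly all members were slightly higher. The median was 0.25, with 79 of 84 positive, beside 0.00 over all genes. Of the members, 73 had a counting interval wholly above 0. No share of all genes is given beside this number, and such intervals narrow as counts rise. Only Cox6a2, at 15 counts against 0, was past the threshold upward and none downward (1.19% and 0%, against 12.2% and 18.1% of all genes), so the shift was broad and small. The 4 complexes lay close together at 0.25 (I), 0.28 (III), 0.28 (IV) and 0.23 (V). Uqcrc1, a core protein of complex III, went from 4991 to 8345 counts (0.49, 0.44 to 0.54). Ndufs5 (0.48) and Ndufb4 (0.46) followed, and Ndufaf2 (-0.13), Ndufa5 (-0.10) and Ndufaf1 (-0.01) were lowest among members with at least 100 counts, each with an interval that includes 0. Cytosolic ribosomal protein genes, another abundant group, had a median of 0.29 in the same comparison and mitochondrial ribosomal protein genes 0.14.

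Regorafenib in M0 went with lower levels in every complex. The median was -0.27, with 68 of 84 negative, beside -0.01 over all genes. Past the threshold were 18 members downward (21.4%) and 5 upward (5.95%), against 23.8% and 22.4% of all genes, so the share past the threshold downward was near the background, while 81.0% of the members were below 0. The 5 upward were Cox7a2l, Atp5s, Ndufb2 and the low-count isoforms Cox6a2, at 1 count against 0, too few for a fold, and Cox6b2. Complex V was lowest, with all 16 genes negative and a median of -0.43, and its summed level went from 2663 to 1963 CPM, 26.3% lower. All 16 counting intervals lay below 0, again without a share of all genes beside them. Complexes I, III and IV had medians of -0.24, -0.22 and -0.25. Atp5g1 went from 1601 to 896 counts (-0.94, -1.06 to -0.82), Ndufa12 from 1288 to 734 (-0.91, -1.05 to -0.78) and Atp5b from 23899 to 15601 (-0.72, -0.75 to -0.69). Core subunits that hardly moved were Ndufv1 (0.01), Uqcrfs1 (-0.03) and Cox4i1 (0.02).

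Cox7a2l was the highest member with regorafenib in M0. Its level was 93.5 CPM in M0 control, 179 in M0 regorafenib, 129 in M1 control, 156 in M1 regorafenib, 98.7 in M2 control and 153 in M2 regorafenib. Each regorafenib library was above its control, with log2 ratios of 0.94 (0.87 to 1.0), 0.27 (0.20 to 0.34) and 0.64 (0.57 to 0.70) in M0, M1 and M2. Cox7a2 stood at 92.4, 51.8, 109, 127, 107 and 72.1 CPM in the same order, so that it was lower with regorafenib in M0 (-0.84, -0.92 to -0.75) and M2 (-0.57, -0.65 to -0.49) and higher in M1 (0.22, 0.14 to 0.29). Per kilobase, Cox7a2 was at 97.8 and Cox7a2l at 63.3 CPM in M0 control. The upstream sequences of both are printed above.

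In M2 the response to regorafenib had the direction seen in M0, with a smaller median. The summed level was 15.3% lower for complex I and 11.3% lower for complex III, against 14.5% and 10.8% in M0. The median was -0.20, with 74 of 84 negative, beside -0.01 over all genes, and 12 members were past the threshold downward and 2 upward (14.3% and 2.38%, against 16.5% and 16.6% of all genes). Complex V was again negative in 16 of 16 genes, with a median of -0.20 and a summed level 17.7% lower. Ndufa12 went from 1823 to 798 counts (-0.81, -0.93 to -0.69), and Ndufs5, an accessory subunit of the membrane arm, from 1264 to 567 (-0.77, -0.92 to -0.63). Cox7a1 was at -0.65 on 121 and 59 counts. Of the 10 members above 0, those with an interval wholly above it were Cox7a2l, Ndufaf1 (0.37), Ndufa1 (0.22), Cox8a (0.17) and Ndufb7 (0.11). Between the M0 and M2 responses, which share no library, 66 members were lower in both and 8 higher in both, 88.1% with the same sign, against 75.2% of all genes tested (5747 lower in both and 5475 higher in both).

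In M1 the direction was the opposite. The median was 0.16, with 77 of 84 positive, beside -0.02 over all genes, and 1 member was past the threshold upward and 2 downward (1.19% and 2.38%, against 8.46% and 12.2% of all genes). All 16 complex V genes were positive, with a median of 0.17. Atp5g1 was highest, from 808 to 1067 counts (0.50, 0.37 to 0.64), followed by Ndufaf5 (0.49) and Ndufc2 (0.48), and the 2 past the threshold downward were Cox6a2 and Cox7a1, at 8 against 2 and 34 against 22 counts with intervals that include 0. Ndufv3 (-0.14) was the lowest of the better covered members. Counting all 3 states, 60 of 84 members (71.4%) were lower with regorafenib in M0 and M2 and higher in M1, and 20.4% of all genes tested had that pattern. It held for 16 of 16 genes of complex V, 25 of 36 of complex I, 4 of 8 of complex III and 9 of 15 of complex IV. Mitochondrial ribosomal protein genes had medians of -0.32 in M0, 0.16 in M1 and -0.40 in M2, and cytosolic ones -0.05, 0.16 and -0.26. Fibroblast markers summed to 9.75 to 20.6 CPM in the 3 control libraries and were higher in each regorafenib library than in its control (21.9 against 10.2 in M0, 29.9 against 20.6 in M1), with all 5 markers above 0 counts in each library. Neutrophil precursor markers moved opposite to the members, with summed levels with regorafenib and without of 158 and 84.8 CPM in M0, 132 and 88.8 in M2 and 106 and 153 in M1. Of their 6 listed markers 3 were measured, mostly Mpo and S100a8, and S100a9 was at 0 to 11 counts. The 8 macrophage markers summed to 48726 against 30918 CPM in M0, 33539 against 21869 in M2 and 34053 against 31583 in M1. The part of these 3 lists in the ratios was not tested.

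**Figure D3:**
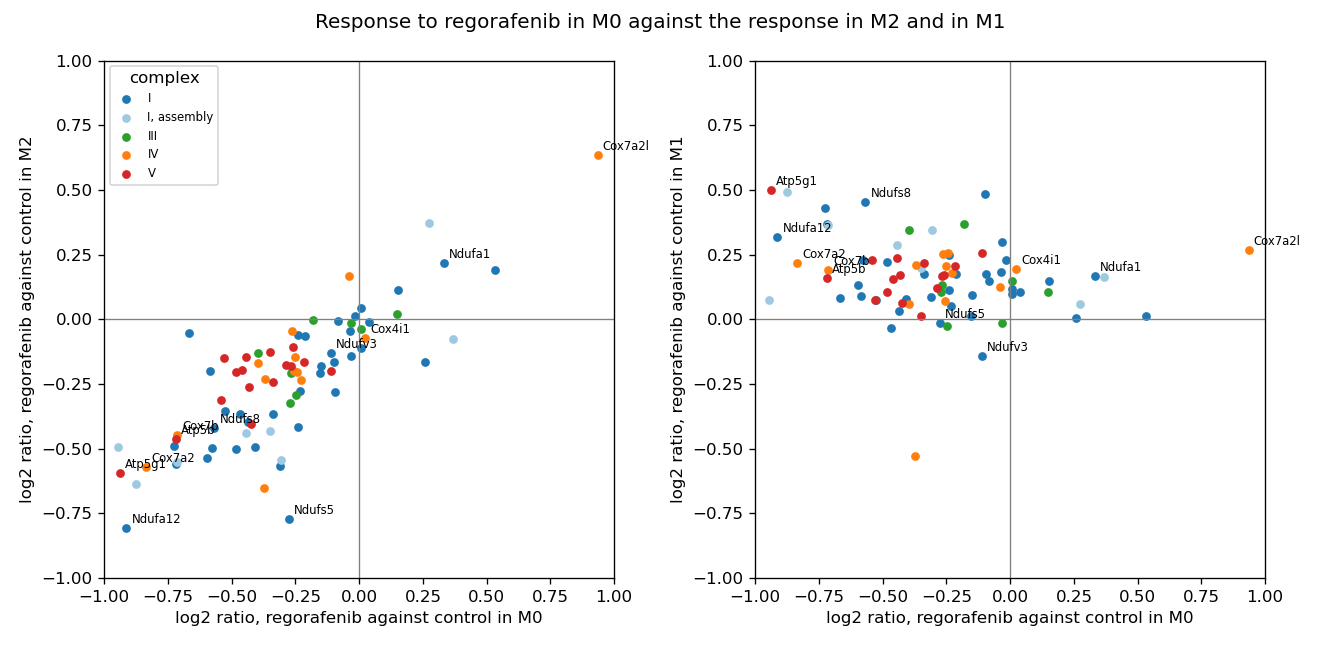
Log2 ratio of regorafenib against control in M0 (x axis) against the same in M2 (left, y axis) and in M1 (right, y axis), 1 point per member, coloured by complex, without Atp5s, Cox6a2 and Cox6b2. Most points lie lower left on the left panel and upper left on the right panel, and Cox7a2l stands apart at 0.94 in M0, 0.64 in M2 and 0.27 in M1.

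States were also compared among the libraries with regorafenib. These ratios reuse the libraries above and add no independent evidence. In M1 against M0, both with regorafenib, the median was 0.34, beside -0.09 over all genes, with 30 members past the threshold upward and 6 downward (35.7% and 7.14%, against 27.3% and 34.0% of all genes). Cox6a2, at 2 counts against 1, was among the 30, and Cox6b2, at 1 against 24, among the 6. With library totals the median of the members was -0.07. Members past the threshold in M1 against M0 were then 49 without drug and 20 with it. The all-gene medians moved as well, to -0.49 and -0.50, so these counts cannot be set against the shares above. Above the all-gene median lay 70 of 84 members, a count that scaling cannot change. Complex IV had a median of 0.52, complex I 0.43, complex V 0.35 and complex III 0.26. Past 1 with at least 100 counts in a library of that pair were Ndufs4 (1.38), Cox7a2 (1.29), Cox7b (1.12) and Atp5b (1.08). These medians and calls hold for TMM scaling. Library totals move every ratio in this comparison by -0.41, and none of these genes then stays past 1. In M2 against M0 with regorafenib the median was 0.28, with 13 past the threshold upward and 1 downward (15.5% and 1.19%, against 13.0% and 14.9%). Cox6a2, at 7 counts against 1, was among the 13. Complex V was at 0.42, with Atp5b at 0.66 and Atp5g3 at 0.63.

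An additive model over all 6 libraries (edgeR quasi-likelihood test, terms for state and drug, Benjamini-Hochberg adjustment over 14110 genes) asked which members differed in the same way at both drug conditions. Its residual, with 2 degrees of freedom, is how far the drug response differs between states and not the spread between cultures. For M1, 6 of 83 members tested were higher and 4 lower, 7.23% and 4.82%, against 18.5% and 18.2% of all genes. Higher were Ndufs4 (1.10, SE 0.24, adjusted p = 0.0164), Ndufb3 (0.81), Ndufc2 (0.76), Ndufv3 (0.72), Cox5a, an early-assembling complex IV subunit (0.62), and Ndufs3 (0.52). Lower were Cox6b2 (-3.63), Cox7a1 (-1.31, adjusted p = 0.0221), Atp5g2 (-0.59, adjusted p = 0.0461) and Ndufb7 (-0.55, adjusted p = 0.0364). Leaving out a library changed this number to between 2 and 20, with 5 calls without M0 control, 2 without M0 regorafenib, 20 without M1 control, 8 without M1 regorafenib, 4 without M2 control and 2 without M2 regorafenib. These fits called 27.9% to 34.8% of all genes, and even 20 of 84 members (23.8%) is below that. None of the genes named for M1 was called in every one of these fits, and Ndufb7 was called in none of them. For M2 no member passed (5 at an unadjusted p under 0.05, 0 by DESeq2), against 0.184% of all genes higher and 0.0142% lower. For regorafenib no member passed in either direction (1 at an unadjusted p under 0.05, 0 by DESeq2), against 0% of all genes in each direction, and this 1 was Cox7a2l (0.63, SE 0.17, adjusted p = 0.338). Without M1 control, and likewise without M1 regorafenib, 2 of 84 members (2.38%) passed for the drug, Cox7a2l higher and Ndufa12 lower, against 4.97% and 5.51% of all genes in the same fits.

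**Figure D4:**
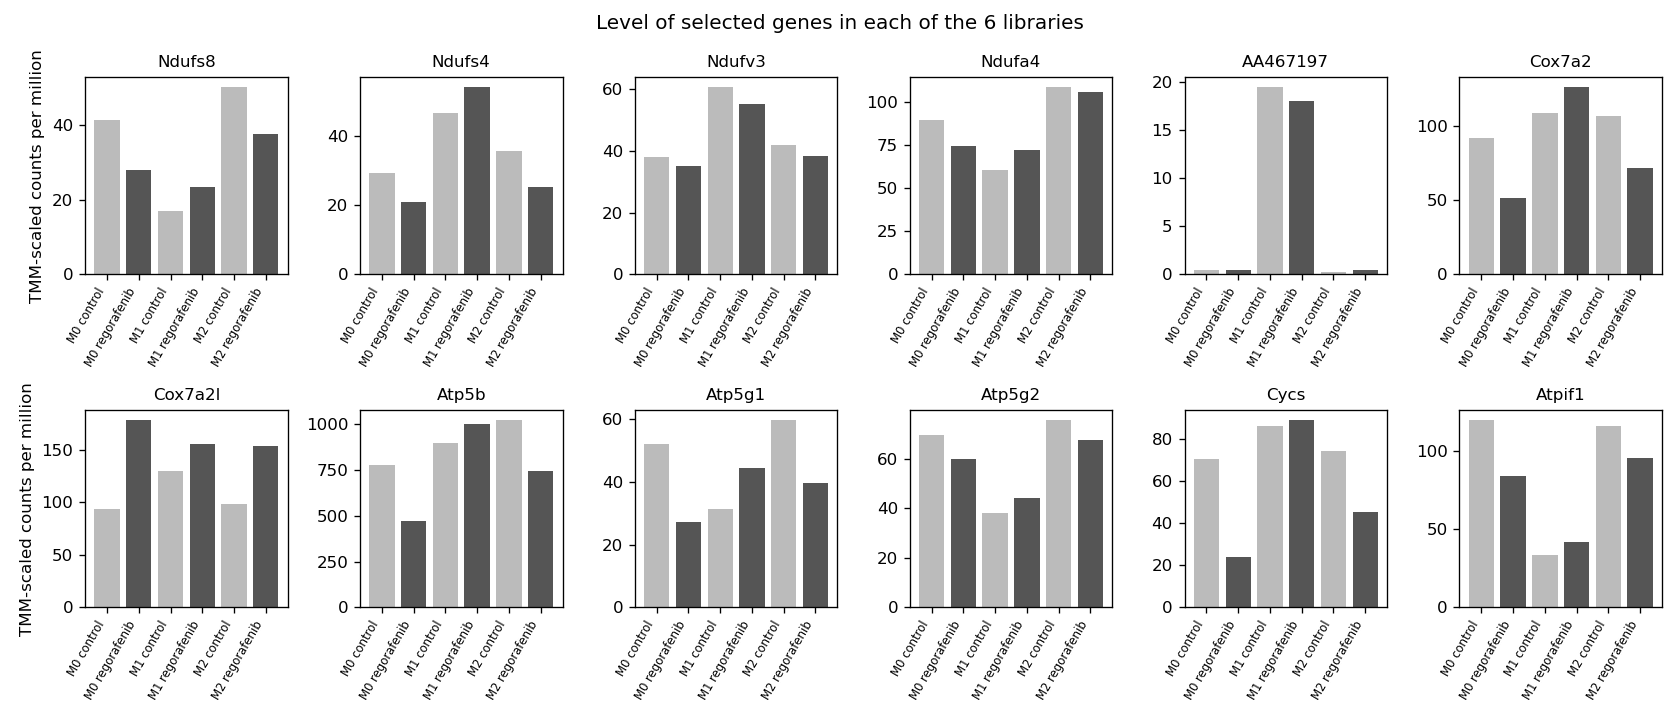
TMM-scaled CPM (y axis, from 0, a scale per panel) of 12 genes in each of the 6 libraries (light bars control, dark bars regorafenib, no error bars). Ndufs4, Ndufv3 and AA467197 are highest in both M1 libraries, Cox7a2l is higher with regorafenib in each state, and Cycs is lowest in M0 regorafenib at 24.2 CPM.

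The mitochondrial genome encodes 13 further subunits of the same complexes, of which 8 had at least 10 counts. In M0 with regorafenib their median was 0.20, with mt-Co1 and mt-Nd5 at 0.40, while the nuclear members had a median of -0.27, and their summed level went from 10059 to 12295 CPM. In M2 the sums were 11901 and 13467 CPM, and in M1 11321 and 11629. In M1 mt-Nd6, the only subunit gene on the light strand, was at 2.02 (399 to 1360 counts), which rests on the strand setting of the counts. Of the 5 genes under 10 counts, mt-Atp8 shares none of its 100-base words with other transcripts. The other 4 and mt-Co3 (6 to 16 counts) are not read as low, since of the words of mt-Co3, mt-Co2, mt-Atp6, mt-Nd4l and mt-Nd3, 97.6% to 99.9% also occur in other annotated transcripts, as do 60.8% of those of mt-Nd4 and 30.8% of those of mt-Co1.

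The electron carrier between complexes III and IV was lower with regorafenib in M0 than any member. Cycs, which encodes cytochrome c, had 2172, 799, 2235, 2155, 2721 and 1265 counts in M0 control, M0 regorafenib, M1 control, M1 regorafenib, M2 control and M2 regorafenib. Its ratios to regorafenib were -1.54 (-1.66 to -1.43) in M0, 0.05 in M1 and -0.72 (-0.82 to -0.62) in M2, although 24.7% of its words occur in other transcripts. Cyc1, which encodes cytochrome c1 of complex III, was at -0.50, 0.12 and -0.25. The 4 subunits of complex II, the succinate dehydrogenase that feeds the chain without pumping protons, had medians of -0.07, 0.13 and -0.07 and none past the threshold.

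Single assembly and regulatory genes lay far from 0 in M1. Atpif1, which encodes the inhibitor of ATP hydrolysis by complex V, stood at 120, 84.2, 33.8, 42.0, 116 and 95.3 CPM in the order above, with a ratio of -1.83 (-1.94 to -1.72) in M1 without drug, and all 4 genes on its list were negative there. Higd1a, a hypoxia-inducible modulator of complex IV, had 918 counts in M0 control and 3347 in M1 control (2.12, 2.01 to 2.22). Of 22 complex IV assembly genes, 4 were past the threshold upward (among them Higd1a and Coa5 at 1.20) and 4 downward, 18.2% each, below the 28.3% and 31.5% of all genes. Of 6 for complex III, Ttc19 was at 1.94 and Bcs1l, which inserts the Rieske protein, at -1.04. Of 9 other complex I assembly genes 5 (55.6%) were past the threshold downward and none upward, beside the same 31.5% and 28.3%, with Acad9 at -0.83. In the additive model for M1, 6 of the 67 tested genes of these lists, with complex II, cytochrome c and the mitochondrially encoded subunits, were higher (mt-Nd6, Ttc19, Cox11, Coa5, Higd1a and Esrra) and 3 lower (Tmem126b, Atpaf1 and Atpif1), which is below the shares of all genes, 18.5% and 18.2%. In M2, Tmem126b, a membrane protein of complex I assembly, was at 0.97. Of 12 biogenesis regulators, Ppargc1b, a coactivator known to respond to interleukin-4, was at 0.96 in M2 on 87 and 201 counts, and with regorafenib at 0.78 in M0 and 1.16 in M2. Esrra (ERRα) was at 1.07 in M1. The transcription factors whose letters were searched upstream stayed within the threshold in every drug comparison, with Nrf1 at -0.29, -0.01 and -0.13, Gabpa at 0.03, -0.14 and 0.18, Yy1 at 0.12, -0.15 and -0.11 and Esrra at 0.19, 0.06 and 0.06 in M0, M1 and M2. With regorafenib in M0, M1 and M2, the 20 members with the NRF1 letters had medians of -0.33, 0.14 and -0.22. The 51 without them had medians of -0.26, 0.15 and -0.18, with ranges that overlap in each state. The part of these factors in the drug response was not tested.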

How the data were processed

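RNA-seq of 6 libraries (TruSeq Stranded mRNA kit, paired reads of 100 bases), 1 for each condition, was analysed. The authors trimmed reads with cutadapt 2.4, aligned them to GRCm38 with STAR 2.7.2a, per the labels and methods, and deposited raw counts per gene (Gencode M19), with the strand column not given in the sources used here. Names came from Gencode M21: 53229 identifiers matched with their version, 1180 without it and 37 had no name. All 6 columns were used. The members and gene lists were chosen with earlier results of these data known.

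Counts were scaled by TMM (edgeR 4.0.16, R 4.3.3). For a pair of libraries the log2 ratio, with 0.5 in place of a count of 0, was given with an exact (Clopper-Pearson) 95% interval for counting error only. A gene entered these comparisons with 10 or more counts in any 1 library. The study's own probabilities rest on simulated replicates and were not used. An additive edgeR quasi-likelihood fit (state and drug) used filterByExpr and an adjusted p under 0.05. DESeq2 1.42.0, other scalings and filters were alternatives. The additive edgeR fit, and not the DESeq2 fit, was also run on simulated counts, and the result of that run is not given here. Named genes were the 3 highest and 3 lowest members with at least 100 counts in 5 comparisons, core subunits, tissue isoforms with their partners, members past an absolute log2 ratio of 1, and pathway genes that describe a list. Promoter windows came from RefSeq. Promoters of 13 members were not matched. The values of 1 core subunit are not reported here.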

Additional observations from a re-analysis of the deposited data

Results flagged for a closer look

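With 1 library per condition, differences between states in the response to regorafenib could not be tested. Past an absolute log2 ratio of 0.5 in opposite directions in different states was 1 member, leaving aside Cox6a2, which had 0 and 1 counts in the M0 libraries and no ratio that can be read there. Atp5g1, for subunit c of ATP synthase, was at -0.94 in M0, 0.50 in M1 and -0.59 in M2, so that M0 and M1 differed by -1.44 and M1 and M2 by 1.09 on the log2 scale. Its value in M1 lies at the threshold, with an interval of 0.37 to 0.64. With 1 CPM added no member was past the threshold in M1, so the flag does not hold there.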

How the results depend on the processing

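Of the medians in 7 comparisons, those for M1 against M0 moved with library totals in place of TMM, to -0.55 without drug and, with a change of sign, to -0.068 under regorafenib. The other medians kept their direction and stayed within the members' typical counting interval under every alternative run (DESeq2 size factors, totals, filters, 1 CPM added, structural subunits only, no tissue isoforms). This also held for 2 alternatives chosen after seeing the data, 68 members with under 10% of words shared with other genes and ratios relative to the median of all genes. With totals, members past the threshold were 49 (main 19) in M1 against M0, 20 (main 36) in the same under regorafenib, 9 (main 14) in M2 against M0 under regorafenib and 8 (main 14) for regorafenib in M2. With 1 CPM added they were 0 (main 1) in M2 against M0, and 0 (main 3) and 9 (main 14) for regorafenib in M1 and M2. In M2 against M0 they were 3 with no filter, 0 with at least 10 counts in every library and 0 without the tissue isoforms, and for regorafenib in M1 they were 1 without the isoforms. At a threshold of 1 they were 4, 0, 1 and 0 in M1 against M0 and for regorafenib in M0, M1 and M2, and 7 and 1 in M1 and M2 against M0 under regorafenib. No share of all genes under the same alternative stands beside these counts. Ndufab1 and Uqcrc2 with regorafenib in M1 changed from -0.03 to 0.0096 and 0.015 with totals. In the additive model, leaving out 1 library moved the members called for M1 between 2 and 20 (main 10) and for regorafenib between 0 and 2 (main 0). DESeq2 called 13 for M1, among them all 10 of edgeR, and over all genes 5163, 413 and 296 for M1, M2 and regorafenib, against 5174, 28 and 0 by edgeR. No paired analysis was possible because each condition had 1 library and no replicate numbers link libraries, although the additive model compares drug and control within each state. Without replicates, depth limits only the counting error.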
